A study of Homo sapiens with 5 samples.

Results

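The 8q24 amplicon genes are the genes on the long arm of chromosome 8 that lie around MYC, in a stretch that COLO 320DM cells are known to carry in many copies. The list was set by name and held 10 genes: MYC, PVT1, CASC11, PCAT1, PRNCR1, CASC19, CCAT1, CASC8, POU5F1B and LRATD2. Of these, 9 matched an identifier among the 60651 genes in the files and all 9 were among the 16341 genes tested, while CCAT1 matched none and is not analysed here. COLO 320DM is a human line labelled as colon adenocarcinoma, and each of its 5 poly(A) RNA libraries received a different siRNA. In the group with USP17 siRNA these were siIDT, sino4 and siSMPLT (3 libraries), and in the group with control siRNA they were siL2 and siNT (2 libraries). Only siNT and L2 are named as controls in the series design, so siIDT, sino4 and siSMPLT count as USP17 siRNAs by elimination. No dose, time, sequence or culture is given, so the spread between libraries mixes technical variation with that of each siRNA.

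MYC encodes a basic helix-loop-helix transcription factor that binds DNA with MAX and raises transcription of genes for growth and ribosome production. In colorectal epithelium its transcription is a classic output of Wnt signalling through beta-catenin and TCF factors, and the gene desert upstream of it holds enhancers as well as a set of long noncoding RNAs. PVT1 is the noncoding RNA gene downstream of MYC, is often amplified with it, and in COLO 320DM has been reported to form fusion transcripts with MYC on extrachromosomal DNA. In amplified DNA the RNA of a gene reflects both copy number and transcription per copy, which these data do not separate.

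Reads in genes numbered 31704821 to 32259474 in the USP17 siRNA libraries and 34320214 to 36276143 in the control libraries, and 3 reads, the most that a count of 0 allows, correspond to 0.0827 to 0.0946 CPM, a unit that scales the gene reads of each library to the same total, for counting error only. Reads on no gene's own strand were 7.05% to 7.49% of all reads with USP17 siRNA and 6.37% to 6.58% in controls. The 30 USP17L genes that encode USP17 had 0 reads in every library, controls included, so the knockdown itself could not be measured. CPM are scaled by TMM between libraries from here on. The 7 colon epithelium markers summed to 1808 to 1866 with USP17 siRNA and 2190 to 2266 in controls. Most of that sum was CDX2, so it says little about the other markers. EPCAM stood at 2.32 to 2.75 CPM with USP17 siRNA and 1.96 to 2.55 CPM in controls. CDH1 and VIL1 were at or below 0.217 CPM in every library. CDX2 passed the test as lower (log2 fold change -0.31) and CDH17 as higher (0.88). PTPRC stood at 44.4 to 49.2 CPM with USP17 siRNA and 41.7 to 51.7 CPM in controls, COL1A1 at 12.5 to 16.9 and 14.2 to 16.1 CPM, and the other leukocyte, fibroblast and endothelial markers had at most 9 reads in any library. Their part in the results on the amplicon genes was not tested.

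Per transcript length, the amplicon genes fell into a high and a low tier. Levels are given in TPM, a unit that divides the reads of a gene by its transcript length before scaling each library to the same total, so that genes can be compared. MYC had 2533, 2491 and 2583 TPM in siIDT, sino4 and siSMPLT and 2712 and 3162 TPM in siL2 and siNT, which placed it between ranks 33 and 63 of all genes. PVT1 followed at 1776 to 2084 TPM over the 5 libraries and LRATD2, a coding gene of the LRAT domain family formerly called FAM84B, at 933 to 1566 TPM. Below them came PCAT1 (105.2 to 135.4 TPM), CASC11 (39.6 to 54.7 TPM), POU5F1B (16.7 to 27.4 TPM), CASC8 (15.9 to 21.0 TPM), CASC19 (8.12 to 11.4 TPM) and PRNCR1 (0.110 to 0.180 TPM). The ranges of neighbours in this order did not overlap except for POU5F1B and CASC8. Together the members held 0.753% to 0.819% of gene reads with USP17 siRNA and 0.915% to 0.992% in controls.

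The high levels were scattered along the region rather than continuous. Relative to the MYC start, LRATD2 starts at -1177 kb, on the centromeric side, and PVT1 at 59.1 kb, on the telomeric side. Of 68 other annotated genes within 3 Mb of MYC, 57 had a mean below 1 TPM and 2 reached 100 TPM. These were CCDC26, a noncoding RNA gene telomeric of PVT1, at 243.4 to 349.2 TPM, and SQLE, which encodes a cholesterol synthesis enzyme. Other coding neighbours were far below LRATD2 and MYC. TRIB1 had 10.2 to 12.3 TPM and CYRIB 69.8 to 89.8 TPM. GSDMC, the coding gene telomeric of CCDC26, had at most 1 read.

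**Figure D1:**
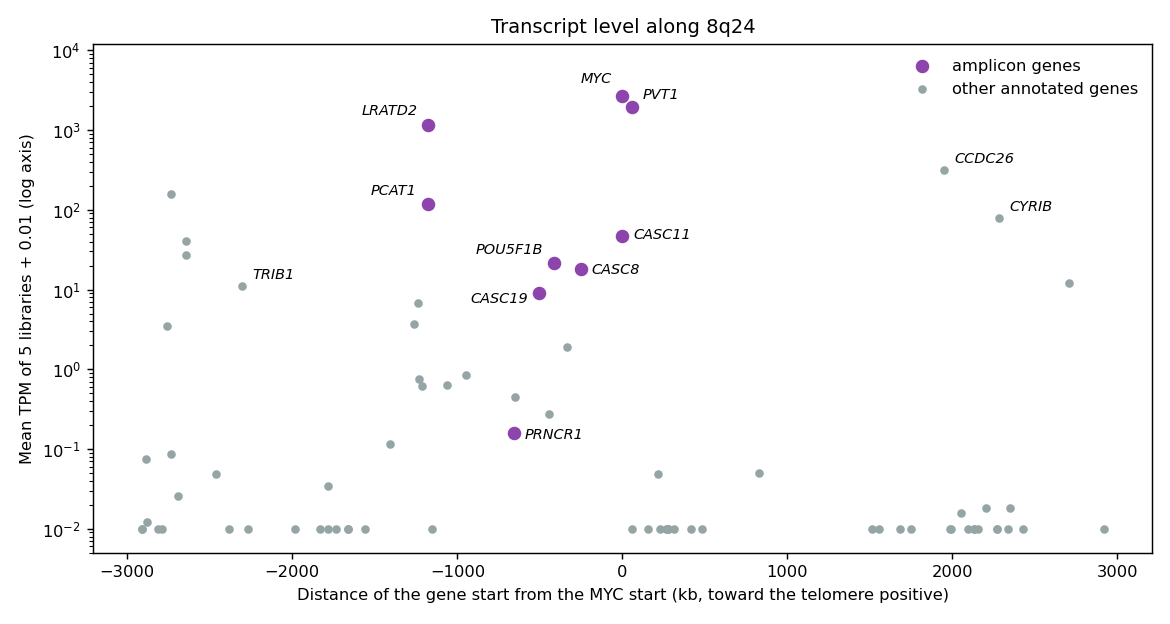
Mean TPM over the 5 libraries (log axis, with 0.01 added) against the distance of each gene's start from the MYC start, for the 77 annotated genes within 3 Mb. Purple points are the amplicon genes and grey points the other genes; MYC, PVT1 and LRATD2 stand highest, with PRNCR1 at the low end.

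The central comparison asked whether the amplicon genes differed with USP17 siRNA, and 2 of the 9, LRATD2 and POU5F1B, fell while none rose (edgeR quasi-likelihood test, threshold 0.05 on the adjusted p). At an unadjusted p below 0.05 (edgeR) there were 5 members. Of these PRNCR1 was higher, and MYC, CASC11, POU5F1B and LRATD2 were lower. The DESeq2 Wald test and limma-voom each called 3 members, all lower, with MYC beside LRATD2 and POU5F1B. Among all tested genes 10.5% were called, 5.82% lower and 4.64% higher. The members' median log2 fold change was -0.26, against 0.0053 over all tested genes, and 7 of the 9 values were negative. The 14 other tested genes within 3 Mb of MYC had a median of -0.21, near that of the members, with 1 called lower and 0 higher. For 5 members every USP17 siRNA library lay below both controls, and for 1 every such library lay above them, where 22.6% and 23.3% of all tested genes did the same (45.9% in all). The members share a locus and are not replicates of each other. In bulk RNA, fewer cells with the amplicon and less RNA per cell cannot be told apart.

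LRATD2, on the minus strand at 126552442 to 126558393 of chromosome 8 (GRCh38, GENCODE 29), had the smallest p of the members. It measured 2956, 3019 and 3416 CPM in siIDT, sino4 and siSMPLT, against 4338 and 4598 CPM in siL2 and siNT. The groups did not overlap, and siSMPLT was the highest of the USP17 siRNA libraries. The means were 3131 ± 249.5 CPM (SD, n = 3) and 4468 ± 183.7 CPM (SD, n = 2). The log2 fold change was -0.51 ± 0.07 (SE; adjusted p 0.00849, edgeR), with the SE worked back from the test statistic here and below. Against single controls the log2 difference ran from -0.64 for siIDT against siNT to -0.34 for siSMPLT against siL2. Leaving out sino4 gave an adjusted p of 0.0589 by edgeR.

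POU5F1B, a retrogene copy of the stem cell factor gene POU5F1 that is annotated at 127322183 to 127420066, fell by a like amount at a level far lower. Its values were 15.8, 15.9 and 17.7 CPM in siIDT, sino4 and siSMPLT, against 22.8 and 24.1 CPM in siL2 and siNT. Here too siSMPLT was nearest to the controls and the groups stood apart. By edgeR it fell by 0.51 ± 0.10 (SE) on the log2 scale, and the adjusted p of 0.0187 became 0.0776 without siIDT and 0.112 without sino4. Its level is uncertain, because POU5F1B resembles POU5F1 and also shares 848 of its 4964 exonic bases with PCAT1 on the same strand. RSEM, which shares out reads that fit several genes, assigned it 1.75 to 1.85 times as many reads, and the part of either in that gap was not tested. With RSEM counts its log2 fold change was -0.50 (adjusted p 0.0263, edgeR). POU5F1 itself had 1 to 2 reads per library.

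MYC, at 127735434 to 127741434 on the plus strand, was lower in every USP17 siRNA library than in either control but did not pass the threshold. It measured 3225, 3242 and 3331 CPM in siIDT, sino4 and siSMPLT, against 3619 and 4214 CPM in siL2 and siNT. The USP17 siRNA libraries lay close together, with a range of 0.05 on the log2 scale, while the controls were 0.22 apart. The means of 3266 ± 57.1 CPM (SD, n = 3) and 3917 ± 421.2 CPM (SD, n = 2) gave -0.26 ± 0.07 (SE) on the log2 scale (adjusted p 0.0519, edgeR). That p lay just above the threshold, and 6 of 11 alternatives put it below. One of these was the fit without siL2, which keeps a single control library, so its p leaves out the spread between controls. The rest ran from an adjusted p of 0.0363 with the DESeq2 Wald test to 0.0494 with limma-voom. The other 5 stayed above the threshold, among them the fit without siNT, which has the same limit. By edgeR the adjusted p was 0.0527 with RSEM counts, 0.104 without siSMPLT, 0.165 without siIDT and 0.188 without sino4. The fold itself depended on the control used, at -0.37 without siL2 and -0.15 without siNT.

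**Figure D2:**
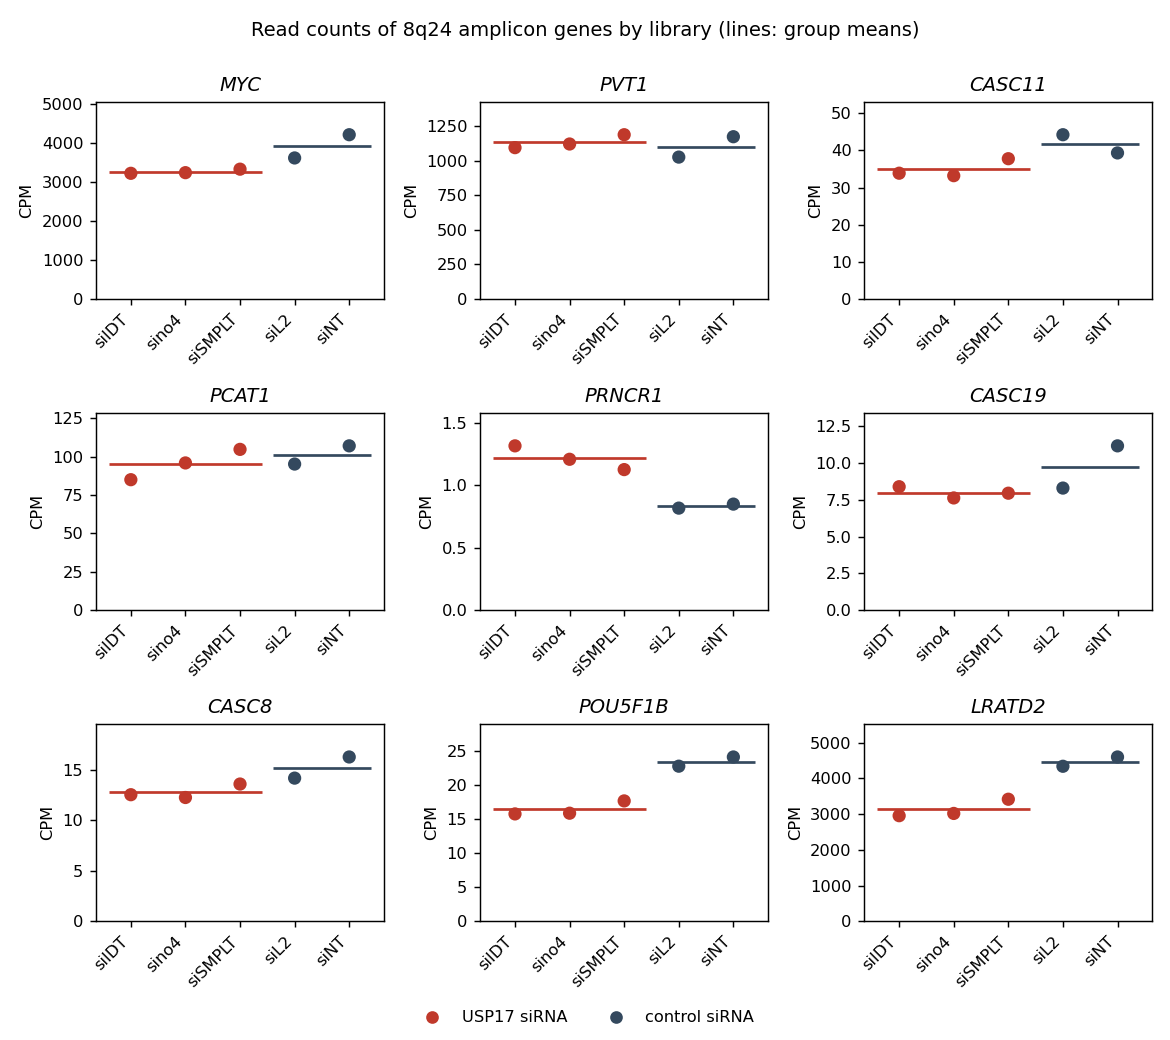
CPM of the 9 amplicon genes in each library, with USP17 siRNA in red and control siRNA in dark blue, axes starting at 0 and lines at the group means. The groups stand apart for MYC, CASC11, CASC8, POU5F1B and LRATD2 (lower) and PRNCR1 (higher), and overlap for PVT1, PCAT1 and CASC19.

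PVT1, at 127794533 to 128101253, overlapped between the groups. It had 1093, 1119 and 1186 CPM in siIDT, sino4 and siSMPLT, against 1025 and 1172 CPM in siL2 and siNT. The controls lay on either side of most USP17 siRNA values, and the log2 fold change was 0.04 ± 0.08 (SE; adjusted p 0.740, edgeR). Its sign turned without siL2, at -0.05. CASC11, a noncoding RNA gene that starts at -1.47 kb from the MYC start on the other strand, had 33.9, 33.2 and 37.8 CPM with USP17 siRNA, against 44.2 and 39.3 CPM in siL2 and siNT. Those groups stood apart narrowly, with a log2 fold change of -0.26 ± 0.10 (SE; adjusted p 0.122, edgeR).

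None of the noncoding RNAs of the upstream gene desert passed the test. PCAT1, named for its link to prostate cancer, overlapped between groups at 85.0, 96.0 and 104.8 CPM with USP17 siRNA against 95.2 and 107.1 CPM in siL2 and siNT (log2 fold change -0.09 ± 0.10 (SE)). CASC8 had 12.5, 12.3 and 13.6 CPM against 14.2 and 16.3 CPM in siL2 and siNT (-0.25 ± 0.11). The choice of control moved both, PCAT1 to -0.17 without siL2 and -0.00038 without siNT, and CASC8 to -0.35 without siL2 and -0.15 without siNT. For CASC19 only siNT, at 11.2 CPM, lay clear of the other libraries, which had 8.38, 7.62 and 7.94 CPM with USP17 siRNA and 8.29 CPM in siL2. Its log2 fold change was -0.28 (adjusted p 0.246, edgeR) but -0.48 without siL2 and -0.06 without siNT. RefSeq (GRCh38.p14) places CCAT1 inside the annotated span of CASC19, and whether CASC19 reads include it was not tested.

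PRNCR1 was the sole member with higher values in every USP17 siRNA library. Its 43, 39 and 36 reads in siIDT, sino4 and siSMPLT, against 28 and 30 reads in siL2 and siNT, corresponded to 1.32, 1.21 and 1.13 CPM against 0.817 and 0.849 CPM. The log2 fold change of 0.54 ± 0.23 (SE) did not pass (adjusted p 0.162, edgeR). The opposite strand of PRNCR1 held 32 to 41 reads per library, 0.821 to 1.32 times its own, and there the groups overlapped.

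**Figure D3:**
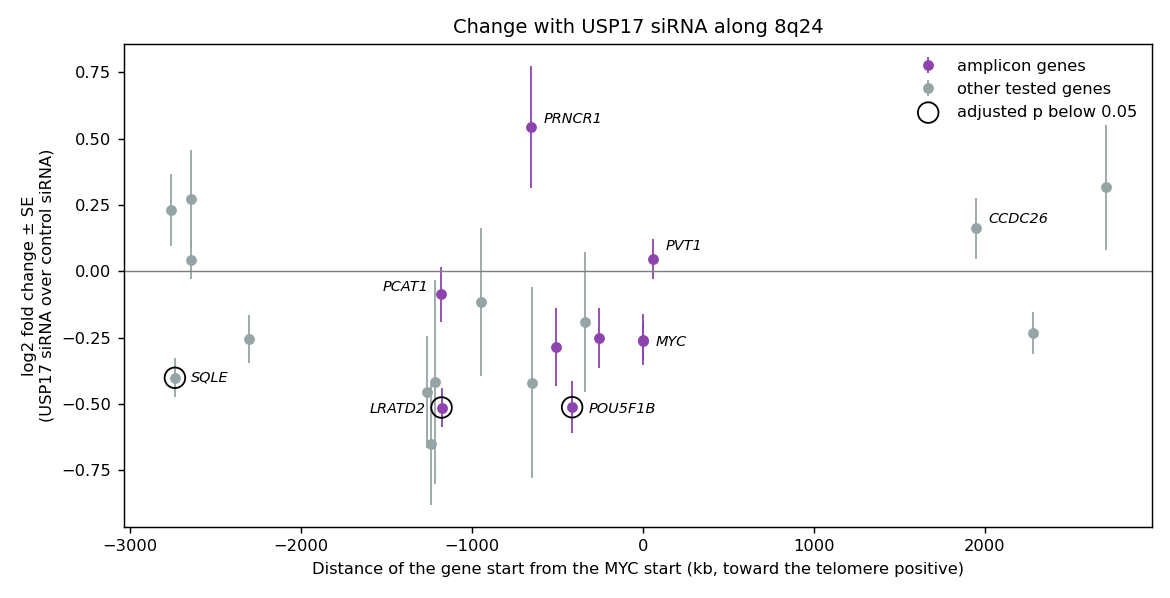
The log2 fold change of USP17 siRNA over control siRNA, with its SE, against the distance from the MYC start, for amplicon genes (purple) and the other tested genes within 3 Mb (grey). Circled genes passed an adjusted p of 0.05: LRATD2, POU5F1B and SQLE, all lower.

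Whether members moved by the same amount was asked from the reads of each gene per MYC read, a ratio within a library that does not depend on scaling between libraries. LRATD2 had 91.7, 93.1 and 102.6 reads per 100 MYC reads in siIDT, sino4 and siSMPLT, against 119.9 and 109.1 in siL2 and siNT. The ratio was lower in all 3 USP17 siRNA libraries, with a log2 difference of -0.26 (exact permutation test over 10 splits, two-sided, p = 0.1, the smallest this design allows; adjusted over 8 members, 0.2). POU5F1B was lower relative to MYC by the same size, -0.26, with the same exact p. With RSEM counts the POU5F1B ratio differed by -0.24 (exact permutation p = 0.2). Counted without regard to strand, the LRATD2 ratio differed by -0.24 (exact permutation p = 0.2). A ratio to MYC that lay below both controls in every USP17 siRNA library was found in 5.08% of tested genes. PVT1 went the other way, with 33.9, 34.5 and 35.6 reads per 100 MYC reads in siIDT, sino4 and siSMPLT against 28.3 and 27.8 in siL2 and siNT (log2 difference 0.31, exact p = 0.1). A ratio above both controls was found in 49.1% of tested genes. Set against PVT1, LRATD2 had 2.705, 2.698 and 2.880 reads per PVT1 read in siIDT, sino4 and siSMPLT, against 4.234 and 3.924 in siL2 and siNT (log2 difference -0.56, exact p = 0.1). This pair was not among the planned ratios. Its value follows from the ratios of LRATD2 and PVT1 to MYC and is not a separate test.

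Of the other members, CASC8, CASC11 and CASC19 had log2 differences of 0.01, 0.001 and -0.01 in their ratio to MYC, all with overlapping groups, though the SD of CASC11 between the controls was 0.28. For PCAT1 that difference was 0.17 (exact p = 0.2) and for PRNCR1 0.79 (exact p = 0.1), with every USP17 siRNA library above both controls. Summed over the 9 members, reads came to 7698 ± 367.2 CPM (SD, n = 3) with USP17 siRNA and 9676 ± 718.3 CPM (SD, n = 2) in controls. That log2 difference of -0.33 had an exact permutation p of 0.1, and without MYC it was -0.38. Most of the sum came from MYC, LRATD2 and PVT1, with means of 3266, 3131 and 1133 CPM with USP17 siRNA. The value without MYC thus rests mainly on LRATD2 and PVT1, whose log2 fold changes were -0.51 and 0.04, and says little about the other members. In TPM, chosen as an alternative after the data were seen, the sums were 5713 ± 220.9 with USP17 siRNA (SD, n = 3) and 6559 ± 706.8 in controls (SD, n = 2), a smaller log2 difference of -0.20 (exact p = 0.1).

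**Figure D4:**
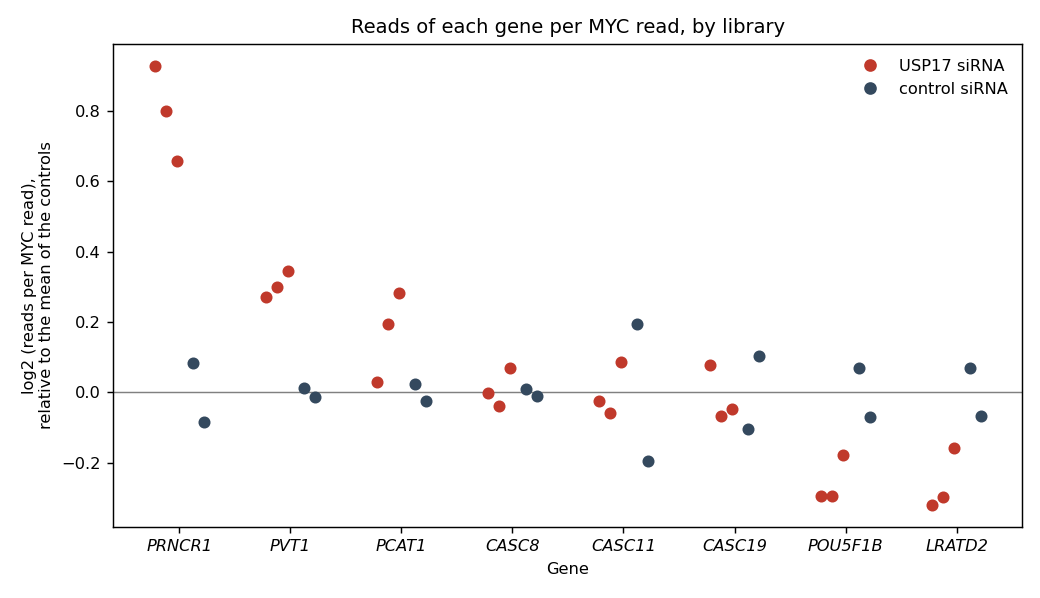
Reads of each gene per MYC read in each library on the log2 scale, relative to the mean of the controls (grey line), with USP17 siRNA in red on the left of each gene and control siRNA in dark blue on the right. LRATD2 and POU5F1B lie below the controls, PVT1 and PRNCR1 above, and CASC8, CASC11 and CASC19 among them.

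Several loci held reads on both strands. Reads on the strand opposite to PCAT1 outnumbered its own 8.34 to 12.5 times. They came to 780.5, 800.3 and 934.8 CPM in siIDT, sino4 and siSMPLT, against 1180 and 1335 CPM in siL2 and siNT. PCAT1 and LRATD2 share 1163 exonic bases on opposite strands in GENCODE 29, and the part of LRATD2 reads in that count was not tested. Counted without regard to strand, PCAT1 was called lower, with a log2 fold change of -0.48 (adjusted p 0.0221, edgeR).

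CCAT2, a noncoding RNA gene between MYC and the POU5F1B start that was not a member, had 59, 70 and 103 reads on its own strand in siIDT, sino4 and siSMPLT and 107 and 83 in siL2 and siNT. On the opposite strand it had 6944, 7711 and 9034 reads in those USP17 siRNA libraries and 10272 and 13876 in siL2 and siNT. The opposite strand was thus 87.7 to 167.2 times as abundant, at 244.6 ± 35.4 CPM (SD, n = 3) with USP17 siRNA and 346.3 ± 65.8 CPM (SD, n = 2) in controls, without overlap. CASC8 lies on that strand, and the reads counted for it were 396 to 575 per library. CASC11 also had more reads on the opposite strand, the strand of MYC, by 6.63 to 8.94 times, at 274.8, 267.4 and 281.0 CPM with USP17 siRNA against 293.1 and 351.5 CPM in siL2 and siNT. At MYC and LRATD2 opposite-strand reads were 0.767% to 1.33% of their own.

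**Figure D5:**
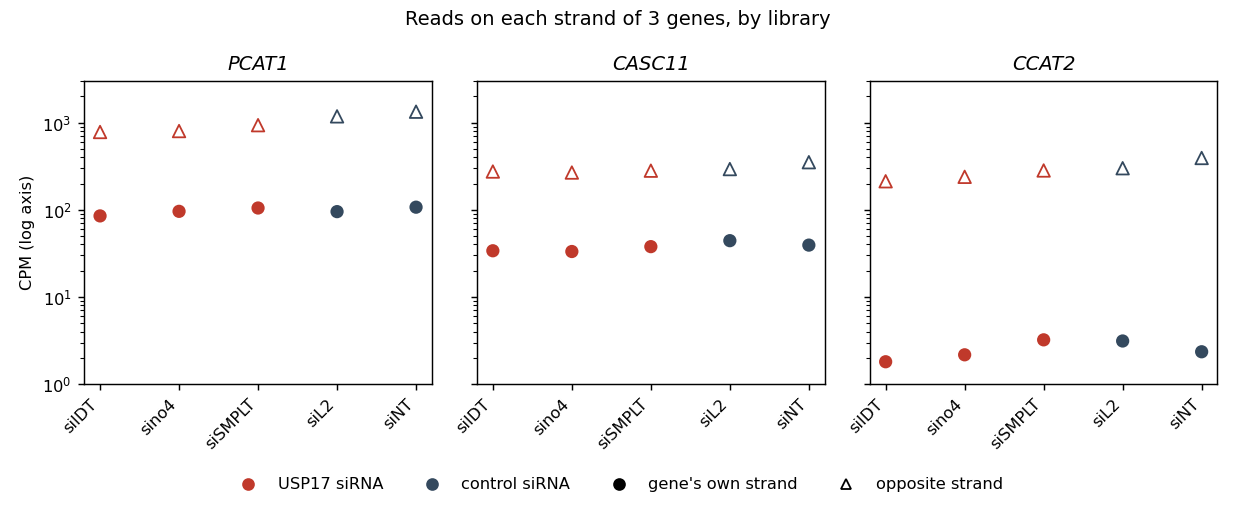
CPM on the gene's own strand (filled circles) and on the opposite strand (open triangles) of PCAT1, CASC11 and CCAT2 in each library (log axis), with USP17 siRNA in red and control siRNA in dark blue. In all 5 libraries the opposite strand is the more abundant at each gene, most of all at CCAT2.

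RSEM also gives a mean transcript length per gene, weighted by the estimated share of each isoform, and small differences in it ran between the groups. All 3 USP17 siRNA libraries lay below both controls for MYC and CASC19 and above them for PVT1, CASC11 and PCAT1, as they did for 8.66% (shorter) and 10.3% (longer) of all tested genes. For MYC it was 1925, 1922 and 1929 bases in siIDT, sino4 and siSMPLT, against 1955 and 1959 bases in siL2 and siNT. PVT1 went the other way, at 1073, 1075 and 1071 bases against 1066 and 1051 bases, as did CASC11 and PCAT1, where the USP17 siRNA libraries had the longer means (1044 ± 8.90 and 1145 ± 7.10 bases) and the controls the shorter (998.5 ± 14.2 and 1099 ± 10.3 bases, SD, n = 3 and 2). CASC19 had 1169, 1202 and 1172 bases in siIDT, sino4 and siSMPLT, against 1215 and 1227 bases in siL2 and siNT. For LRATD2 siNT alone stood apart, at 4220 bases against 4581 to 4651 bases in the other libraries. These lengths are estimates, and no isoform was tested.

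The regulators of MYC had 2 of 18 members lower and 3 higher, beside 5.82% and 4.64% of all tested genes. CTNNB1, which encodes beta-catenin, was lower (log2 fold change -0.77, adjusted p 0.00215, edgeR) and TRIB3 was lower by 0.62. Among those that were higher, IGF2BP1, whose protein protects MYC mRNA from decay, changed by 0.32 and FUBP1, which binds upstream of MYC, by 0.31. FBXW7, listed for MYC protein turnover, rose the most of the 3, by 0.56 (adjusted p 0.0327, edgeR). In the MAX network, whose proteins pair with or oppose MYC, edgeR called 0 of 10 members. There 2 had an unadjusted p below 0.05 and 2 were called by the Wald test of DESeq2.

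Among 20 genes induced by MYC, 3 were lower and none higher, set beside the same 5.82% and 4.64% of all tested genes, as are the counts of neighbours that follow. These were ODC1, which makes polyamines, at -1.03, the nucleolar gene NOLC1 at -0.40 and the serine hydroxymethyltransferase gene SHMT2 at -0.31. The median of that list was -0.09. Of the coding neighbours on the centromeric side 20 were tested, of which SQLE (-0.40) and MTSS1 (-0.63) were lower and ZHX2 (0.64) higher, with a median of 0.01, and of 8 tested on the telomeric side edgeR called 0 (3 at an unadjusted p below 0.05, 0 by DESeq2), with a median of 0.25. A further set of 15 transcripts of the interval was chosen by name and does not hold every annotated one. Of these 2 were tested, CCDC26 and CCAT2. CCDC26 had 222.7, 217.8 and 237.9 CPM with USP17 siRNA against 173.6 and 230.7 CPM in siL2 and siNT (0.16, adjusted p 0.395, edgeR). CCAT2 had a log2 fold change of -0.19 (adjusted p 0.681, edgeR).

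In earlier work on these same libraries 7-base sequences were picked whose carriers had lower RNA, and they were searched in the longest GENCODE 29 transcript of each member, on the RNA strand. ATCACTC and TCACTCA overlap in the bases TCACTC and were picked on the USP17 siRNA libraries, and GATCATC on siL2. MYC, PVT1 and LRATD2 held none of them. POU5F1B and CASC19 held ATCACTC, which was in 15.7% and 19.3% of tested genes with transcripts of similar length. CASC8, CASC11 and PRNCR1 held TCACTCA, which was in 8.28%, 18.1% and 56.7% of genes of similar length. PCAT1 held GATCATC, found in 9.08% of genes of similar length. A match is a description of the letters and not a target site, and its part in any change was not tested.

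The genes most like MYC across the 5 libraries were ranked by the root mean square difference of centred log2 CPM, among 6188 genes outside chromosome 8 with a mean log2 CPM of at least 5. Among the 5 nearest were RNF168 (0.0088), DR1 (0.014), NUP50 (0.016) and FDPS (0.017), against a median of 0.17 over the genes compared. PVT1 and LRATD2, which neighbour MYC, differed from it by 0.15 and 0.14. With so few libraries such likeness describes only how 5 values deviate from their mean.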

How the data were processed

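COLO 320DM poly(A) RNA was purified with TRIzol and RNeasy and made into libraries with the KAPA RNA HyperPrep kit, per the labels' protocols. The submitters' processing notes name bcl2fastq 2.20, STAR 2.7.1a, RSEM 1.3.2 and GRCh38. Neither annotation release nor strand setting is given in the sources used. The authors deposited STAR read counts per gene in 3 columns, of which the stranded column with most reads was used, and RSEM expected counts and TPM with transcript lengths. Expected counts deposited by the authors were rounded for the alternative that used them. Rows that name no gene held 22.8% to 24.4% of reads and stayed out of library sizes.

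Genes passed filterByExpr (minimum count 10, minimum total 15), were scaled by TMM and tested with edgeR 4.0.16 (quasi-likelihood) in R 4.3.3, adjusted by Benjamini-Hochberg over all 16341 genes. The fold change is USP17 siRNA over control siRNA. Its SE is the size of the log2 fold change divided by the square root of the F statistic of the edgeR test. It thus restates the p-value and is not a separate measure of spread. Exact permutation tests used all 10 splits of 3 and 2 libraries. DESeq2 1.42.0, limma 3.58.1, no filter, counts without regard to strand, RSEM counts and leaving out each library were alternatives. The fit was tested on simulated data. The labels do not say whether libraries came from separate cultures, and the p-values thus reflect library-to-library spread that may be technical. From lists other than the members, at most the 4 called genes with the smallest p were named, except that FBXW7 was added to give every called regulator of MYC. The members, lists and 7-base sequences were chosen with earlier results of these data known. Of the 5 genes most like MYC, 1 is not reported here.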

Additional observations from a re-analysis of the deposited data

How the results depend on the processing

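The number of members called was 2. It was 3 with DESeq2 size factors, the DESeq2 Wald test, limma-voom and no filter, and 4 with counts taken without regard to strand. When 1 USP17 siRNA library was left out it was 0 to 2 (0 without sino4, 1 without siIDT, 2 without siSMPLT). Over all genes the calls numbered 130 without sino4, 349 without siIDT, 1041 without siSMPLT, 2430 without siL2 and 2633 without siNT, against 1710. LRATD2 lost its call in 1 of 11 alternatives and POU5F1B in 2, MYC gained one in 6, and CASC11, CASC8 and PRNCR1 stayed uncalled in 11. Directions turned for PVT1 (-0.049 without siL2), for the ratio to MYC reads of PCAT1 (-0.21 without regard to strand), of CASC11 (-0.04 without siSMPLT, -0.19 without siNT, and -0.19 to 0.20 over single omissions), of CASC19 (0.14 without regard to strand, 0.02 without sino4, 0.0062 without siSMPLT, 0.093 without siNT and -0.12 to 0.093 over single omissions) and of CASC8 (-0.018 with RSEM counts, -0.020 without siSMPLT, -0.00093 without siNT, and -0.020 to 0.035 over single omissions). The cause was not tested. No paired analysis was possible because the replicate numbers follow accession order and pair no libraries. The summed level in TPM, added after seeing the data, differed by -0.20, against -0.33 in CPM. With 3 and 2 libraries no single-value permutation test can go below 0.1, and PRNCR1 rests on few reads.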
